A study of Arabidopsis thaliana with 251 samples.

Results

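IAA and SAUR are 2 families of early auxin response genes of Arabidopsis thaliana, and their chromatin was read here from the peak lists of a zinc finger (ZF) silencing screen. Members were taken as the annotated TAIR10 genes whose symbol is IAA or SAUR followed only by digits, which gave 24 IAA and 16 SAUR genes, or 40 of 37899 annotated genes. The window of a gene was its body plus 500 bp upstream, and a gene had a peak where at least 1 bp of its window was covered by a peak of that library.

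When auxin is scarce, the Aux/IAA proteins encoded by the IAA genes bind auxin response factors (ARFs) and recruit TOPLESS corepressors to their target genes. Auxin joins an Aux/IAA protein to the F-box receptors TIR1 and AFB, the repressor is degraded and the ARF targets are transcribed, the IAA genes themselves among them. SAUR genes are short and mostly intronless, and several SAUR proteins promote cell expansion by inhibiting PP2C.D phosphatases, which keeps plasma membrane proton pumps active. H3K4me3, H3K36me3 and histone acetylation mark transcribed plant genes, whereas H3K27me3, deposited by Polycomb complexes, marks repressed ones.

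All lines were of the Col-0 ecotype. The parent of the fusion lines was fwa, an epiallele without DNA methylation at the FWA promoter, in which FWA is misexpressed and flowering is late. Into fwa had been introduced a protein joined to a ZF that binds the FWA promoter, expressed from the UBQ10 promoter or from the gene's own promoter, and T2 lines with early flowering were used. The proteins were LHP1 and MSI1 (Polycomb-associated), JMJ14 (an H3K4 demethylase), HD2A, HD2B, HD2C and HDA6 (histone deacetylases), ELF7 (a subunit of the PAF1 elongation complex) and CPL2 (a phosphatase of the Pol II C-terminal domain). EYFP-ZF, a fluorescent protein joined to the same ZF, was the control fusion, and the elf7 T-DNA mutant without a transgene was compared with Col-0. Chromatin was taken from leaves of 4- to 5-week-old plants, except that FLAG lists came from unopened flower buds.

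The data comprised 104 peak lists of 8 histone marks and of Pol II phosphorylated at Ser5, 40 of them from fwa, and 4 FLAG lists, out of 251 samples of the series. Each of the 104 lists held 940 to 29961 peaks. Libraries were made in numbered data sets (SET), and a fusion was set only beside fwa of its own SET. In SET3 and SET4 the fwa libraries are labelled fwa1 and fwa2 under a shared replicate number. Each was counted as its own library, and the labels do not say how they differ. The number of reads behind a list is unknown, so a missing peak may be a weak one, and lists of 1 comparison could differ in their number of peaks. Leaf tissue holds many cell types, and fewer cells with a mark cannot be told apart from less of the mark per cell.

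The 2 families differed in size and structure. The IAA genes had a median length of 1717.5 bp (986 to 3137 bp) and 2 to 7 exons. The SAUR genes had a median length of 738.5 bp and a single exon each, so that a SAUR window (median 1238.5 bp) offered less room for a peak than an IAA window (median 2217.5 bp). The gene with the symbol SAUR21 was an exception. This locus, AT5G01830, is annotated as an ARM repeat protein and is 2865 bp long, whereas AT5G18030 carries SAUR21 only as a synonym, so values are also given without AT5G01830. The windows of 7 IAA and 6 SAUR genes overlapped another annotated gene, and the divergent pairs SAUR22 and SAUR23, and SAUR27 and SAUR28, shared upstream sequence, so that a peak there could belong to either gene.

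Auxin response elements, the ARF binding motifs TGTCTC and TGTCGG, were counted on both strands from 250 bp before to 50 bp after the gene start in RefSeq promoters (TAIR10.1). TGTCTC was present in 12 of 24 IAA promoters (50%) and in 4 of 16 SAUR promoters (25%), beside 14.2% of all promoters. TGTCGG was present in 5 IAA (20.8%) and 2 SAUR promoters (12.5%), beside 5.06% of all. Either motif occurred in 62.5% of the IAA, 37.5% of the SAUR and 18.6% of all promoters. The motifs share their leading bases and were counted separately. Below are 4 promoters of genes described in detail, with a motif on either strand in capitals (GAGACA and CCGACA are the reverse complements). IAA19, IAA1 and IAA7 are shown because they bore H3K27me3 and H3K4me3 together, and IAA7 and SAUR36 because they were called most often in the fusion lines. IAA19 and IAA1 hold motifs in this window, and IAA7, SAUR36 and IAA2, the remaining gene with both marks, hold neither. The IAA19 sequence is chr3:5263751-5264050 and the IAA1 sequence chr4:8360746-8361045, both on the plus strand. The IAA7 sequence is chr3:8194356-8194655 and the SAUR36 sequence chr2:18641313-18641612, both also on the plus strand.
IAA19: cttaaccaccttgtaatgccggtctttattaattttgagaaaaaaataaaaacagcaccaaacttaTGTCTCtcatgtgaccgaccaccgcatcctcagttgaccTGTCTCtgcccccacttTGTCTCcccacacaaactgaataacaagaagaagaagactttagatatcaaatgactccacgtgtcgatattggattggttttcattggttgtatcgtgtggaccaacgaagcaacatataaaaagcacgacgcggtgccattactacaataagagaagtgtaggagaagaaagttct
IAA1: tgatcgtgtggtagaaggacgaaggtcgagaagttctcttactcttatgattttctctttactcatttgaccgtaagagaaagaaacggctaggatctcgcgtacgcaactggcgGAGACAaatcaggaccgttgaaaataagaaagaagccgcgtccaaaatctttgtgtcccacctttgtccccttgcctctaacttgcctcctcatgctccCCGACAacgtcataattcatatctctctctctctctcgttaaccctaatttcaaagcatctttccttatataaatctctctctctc
IAA7: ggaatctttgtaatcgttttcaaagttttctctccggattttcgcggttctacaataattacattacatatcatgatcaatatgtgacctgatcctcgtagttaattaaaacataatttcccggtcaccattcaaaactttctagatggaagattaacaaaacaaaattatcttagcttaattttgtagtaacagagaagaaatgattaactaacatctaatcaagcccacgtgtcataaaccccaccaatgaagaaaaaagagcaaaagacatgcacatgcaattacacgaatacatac
SAUR36: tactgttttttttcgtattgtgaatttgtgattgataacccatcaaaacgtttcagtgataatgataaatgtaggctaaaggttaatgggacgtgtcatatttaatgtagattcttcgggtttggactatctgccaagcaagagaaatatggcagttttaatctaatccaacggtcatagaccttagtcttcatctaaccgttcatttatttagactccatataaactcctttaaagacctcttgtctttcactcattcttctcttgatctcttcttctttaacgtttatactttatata
The TGTCTC motifs of IAA19 began 184, 145 and 128 bp before the gene start. IAA1 held 1 TGTCTC and 1 TGTCGG, both on the minus strand.

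In both fwa libraries, IAA genes carried H3K36 methylation more often than SAUR genes. H3K36me3, a mark of elongation in gene bodies, lay over 8 and 9 of 24 IAA genes in the 2 fwa libraries (35.4% ± 2.95, SD, n = 2), but over a single SAUR gene in each (6.25%), which was AT5G01830 both times. Without that locus no SAUR gene had H3K36me3. H3K36me2 lay over 12 and 15 IAA genes (56.3% ± 8.84, n = 2) and over 3 and 2 SAUR genes (15.6% ± 4.42). Of all genes, 46.1% had H3K36me3 and 53.0% had H3K36me2, and of protein-coding genes 55.9% and 65.3%. The IAA share thus lay below that of all genes for H3K36me3 and near it for H3K36me2. With 2 libraries the exact sign-flip permutation test of the IAA minus SAUR difference cannot go below p = 0.5, and both differences had that value. Other short genes carried these marks more often than SAUR genes did. Of them, 22.9% (of 4061 protein-coding genes with windows of 1087 to 1677 bp, the range of the SAUR windows without AT5G01830) had H3K36me3 and 34.9% had H3K36me2, beside 0 and 10% of those SAUR genes. In windows of 500 bp on each side of the gene start, which are equal for all genes, H3K36me3 lay over 31.3% of the IAA and 0 of the SAUR genes, and H3K36me2 over 33.3% and 12.5%. Among members whose window overlaps no other gene, the difference fell from 40.6 to 16.2 percentage points for H3K36me2 and from 29.2 to 13.5 for H3K36me3. A wider list of 78 SAUR genes by annotated product had H3K36me3 in 10.3% and H3K36me2 in 36.5% of cases.

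For H3K4me3 and acetylation at H3, the families differed by less than the spread of that difference between libraries. H3K4me3 lay over 13 to 14 of the IAA genes (56.3% ± 2.41, n = 4) and 9 to 11 of the SAUR genes (60.9% ± 5.98). For H3K9ac the shares were 53.6% ± 6.56 and 60.7% ± 11.8 (n = 7). For H3K14ac they were 55.2% ± 3.99 and 62.5% ± 8.84 (n = 4). For H3K27ac they were 50.7% ± 8.09 and 52.1% ± 23.6 (n = 6). None of these 4 differences, of −1.39 to −7.29 percentage points, passed the two-sided exact sign-flip permutation test (lowest raw p = 0.156). For H3K4me3 and H3K14ac it could not be passed, since 4 libraries allow no p below 0.125 in that test. SAUR genes without AT5G01830 had H3K4me3 in 58.3% and H3K9ac in 58.1% of cases, whereas the short protein-coding genes had them in 30.9% and 32.3%. The sign of the family difference depended on the list, since the 78 SAUR genes by product had H3K4me3 in 42.6% and H3K9ac in 45.8% of cases, below the IAA genes.

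**Figure D1:**
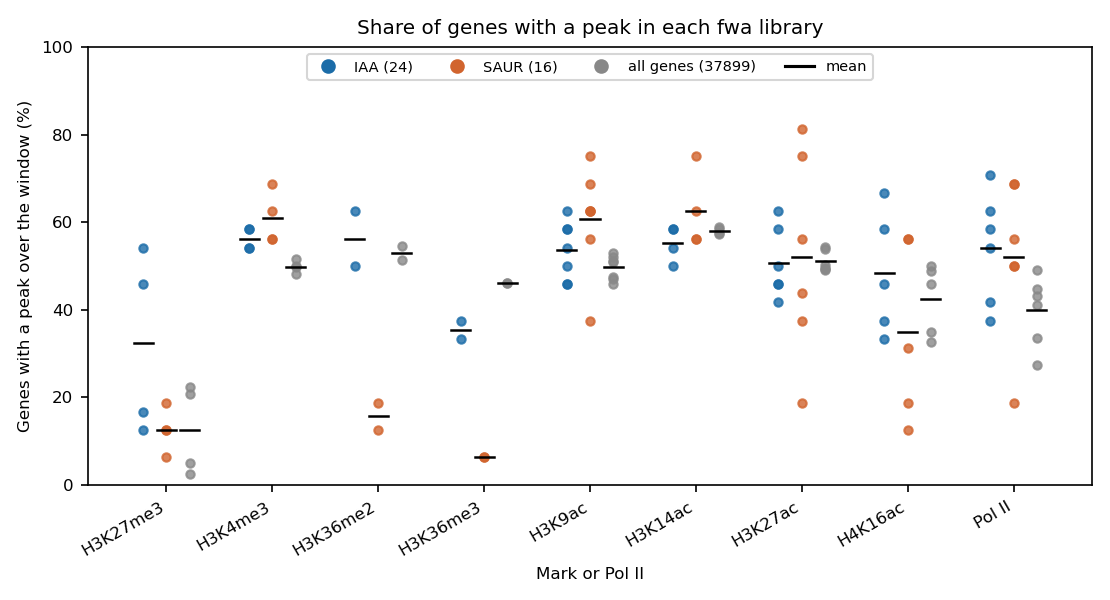
Share of IAA genes, SAUR genes and all annotated genes with a peak in fwa, in percent, for each mark and for Pol II, with a point per library. H3K36me2 and H3K36me3 show the widest gap between the families, 56.3% beside 15.6% and 35.4% beside 6.25%.

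H4K16ac was higher over the IAA than the SAUR genes in 5 of 5 fwa libraries, at 48.3% ± 14.01 beside 35% ± 20.5. The raw exact permutation p was 0.0625, the smallest that 5 libraries allow, and it was 0.5625 after Benjamini-Hochberg adjustment over the 9 readouts. With 1000 bp upstream in the window the difference fell from +13.3 to +0.83 percentage points. Both shares moved with the data set. IAA genes had H4K16ac in 35.4% of cases in SET3 and in 62.5% in SET15. Pol II lay over 9 to 17 IAA genes (54.2% ± 12.6, n = 6) and over 3 to 11 SAUR genes (52.1% ± 18.4), beside 39.8% of all genes, and the families did not differ beyond this spread (exact permutation p = 0.8125).

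H3K27me3 marked a distinct set of IAA genes. In the SET1 and SET2 libraries it lay over 13 and 11 IAA genes, but over 2 SAUR genes in each. The SET14 libraries had only 2199 and 1149 H3K27me3 peaks, beside 12441 and 14103 in SET1 and SET2. Over all 4 libraries the share was 32.3% ± 20.8 of the IAA and 12.5% ± 5.10 of the SAUR genes. The exact permutation p was 0.25 (adjusted p = 0.5625), and 4 libraries allow none below 0.125. Without SET14 the family difference was +37.5 points, beside +19.8 over all 4 libraries. With the wider lists it was +6.09 (32 IAA and 80 SAUR genes by synonym) and +10.8 (78 SAUR genes by product). Marked in both SET1 and SET2 were IAA1, IAA2, IAA6, IAA7, IAA14, IAA15, IAA19, IAA20, IAA29, IAA30 and IAA33, that is 45.8% of the family beside 18.6% of all genes. IAA14 encodes a repressor of lateral root initiation, and IAA20, IAA30 and IAA33 encode Aux/IAA proteins without the canonical degron. The 2 SAUR genes were SAUR36 and SAUR9.

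Within the IAA family, the genes with H3K36me3 in both fwa libraries did not include any with H3K27me3 in SET1 or SET2. H3K36me3 lay in both fwa libraries over IAA8, IAA9, IAA10, IAA11, IAA12, IAA13, IAA16 and IAA18, and 0 of these 8 had H3K27me3 in SET1 or SET2. Over the genome, 6.49% of the 16447 genes with H3K36me3 in both libraries had H3K27me3 there, beside 24.3% of all genes. IAA16 did have H3K27me3 over 6.12% and 12.5% of its window in the SET14 libraries. IAA12 encodes BODENLOS, which acts in embryonic root formation. IAA16 had the highest-ranking IAA peak of H3K4me3, H3K9ac, H3K27ac and H4K16ac, with median enrichments of 10.6-, 9.52-, 7.89- and 5.24-fold. The highest-ranking IAA peak of H3K36me3 was at IAA11 (4.04-fold), that of H3K36me2 at IAA34 (3.83-fold) and that of H3K14ac at IAA13 (4.07-fold). In SAUR windows, AT5G01830 held the highest-ranking peak of H3K36me2, H3K36me3, H3K9ac, H3K14ac, H3K27ac and H4K16ac. SAUR15, known as SAUR-AC1 and one of the early auxin-induced SAUR genes, held that of H3K4me3 (8.72-fold) and of Pol II (16.3-fold). Pol II covered a median of 8.88% of the SAUR15 window (6.05% to 83.5%) and H3K4me3 22.4% (2.36% to 57.5%). The SAUR15 window overlaps another annotated gene, so that these peaks could belong to either gene.

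IAA1, IAA2, IAA7 and IAA19 bore H3K27me3 and H3K4me3 together in both SET1 and SET2, which was 16.7% of the IAA genes, 0 of the SAUR genes and 2.46% of all genes. IAA19 encodes the repressor MASSUGU2 of hypocotyl tropism. H3K27me3 covered 59.2% and 53.8% of the IAA2 window in SET1 and SET2 and 62.4% and 61.3% in SET14. IAA2 thus kept its H3K27me3 peak even in the short SET14 lists, as did IAA7. IAA2 also had the highest-ranking IAA peak of Pol II. In the fwa libraries this was 15.2-fold in SET8, 23.0-fold in SET9, 19.1-fold in SET10, 16.5-fold in SET11 and 11.1- and 13.8-fold in SET14. In each of these lists it ranked above 96.7% of the peaks or higher. A window with both marks in leaf tissue may hold them in the same or in different cells, which these lists do not resolve.

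Pol II was present in every fwa library over IAA1, IAA2, IAA7, IAA9, IAA13, IAA16 and IAA18 and over SAUR15, SAUR24 and SAUR63. This was 29.2% of the IAA and 18.75% of the SAUR genes, near the 23.8% of all genes and 28.8% of protein-coding genes. At the other end, IAA31 and SAUR75 had no peak of any mark in any fwa library, as was the case for 17.1% of all genes and 6.62% of protein-coding genes.

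**Figure D2:**
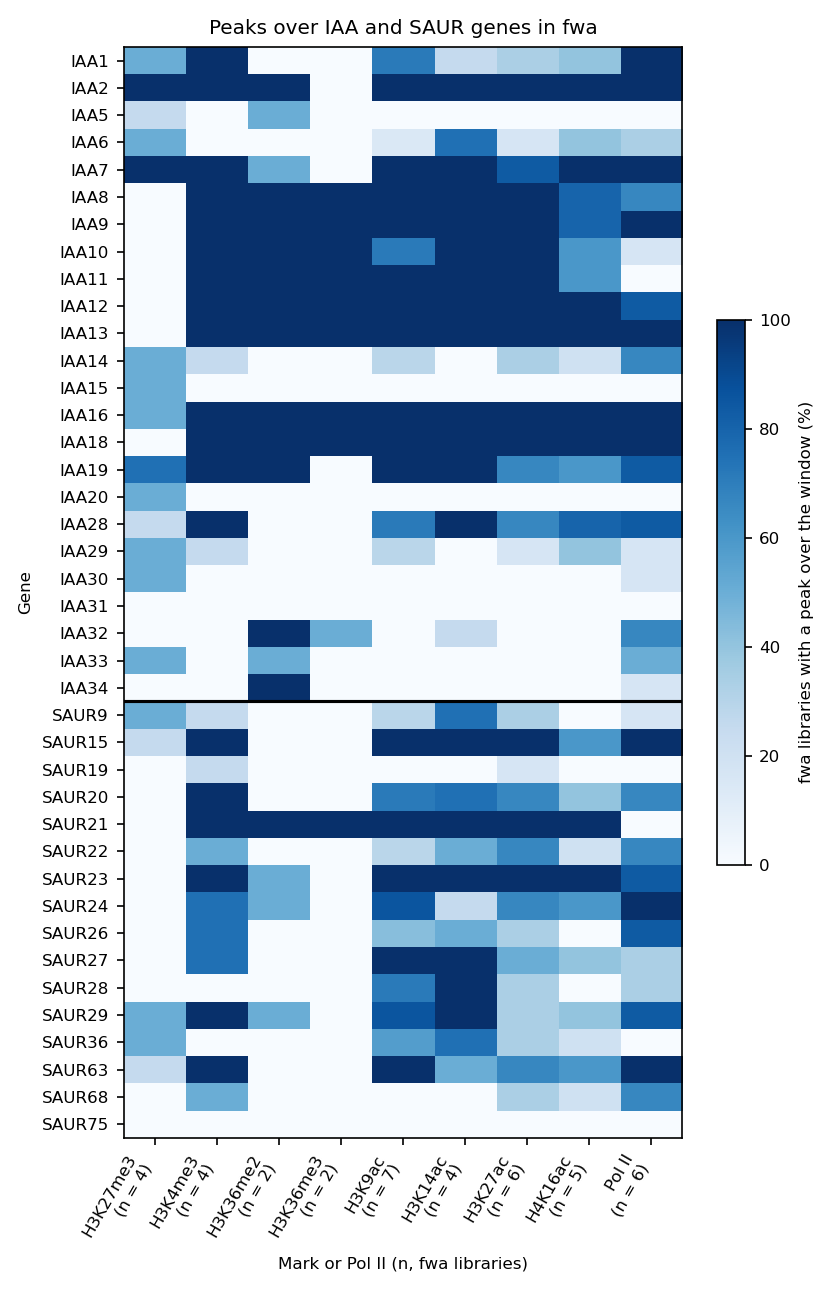
Share of fwa libraries with a peak over the window of each member (rows) for each mark and Pol II (columns), from 0 to 100%. IAA31 and SAUR75 are empty in every column, and H3K36me3 is absent from every SAUR row but that of SAUR21 (AT5G01830).

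Each fusion was then set beside fwa of its SET in 32 contrasts. The share of members with a peak was lower in 21, higher in 7 and equal in 4. Among the 25 contrasts of an effector or of elf7, 19 were lower and 3 higher, and among the 7 contrasts of EYFP-ZF 2 were lower and 4 higher. Over all genes the share was lower in 24 of the 32 contrasts and higher in 8, with 19 lower and 6 higher among those of an effector or of elf7. Many contrasts shared control libraries, so these counts are not independent. No contrast could pass the two-sided exact permutation test over libraries at 0.05. The smallest p that the library numbers allow in that test was 0.33, 0.1 or 0.067, with 0.33 for 2 libraries against 2. The smallest raw p reached was 0.1 and the smallest adjusted p 0.82. Nothing states whether 2 libraries of a line came from separately grown plants, so the spread between them may be technical.

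**Figure D3:**
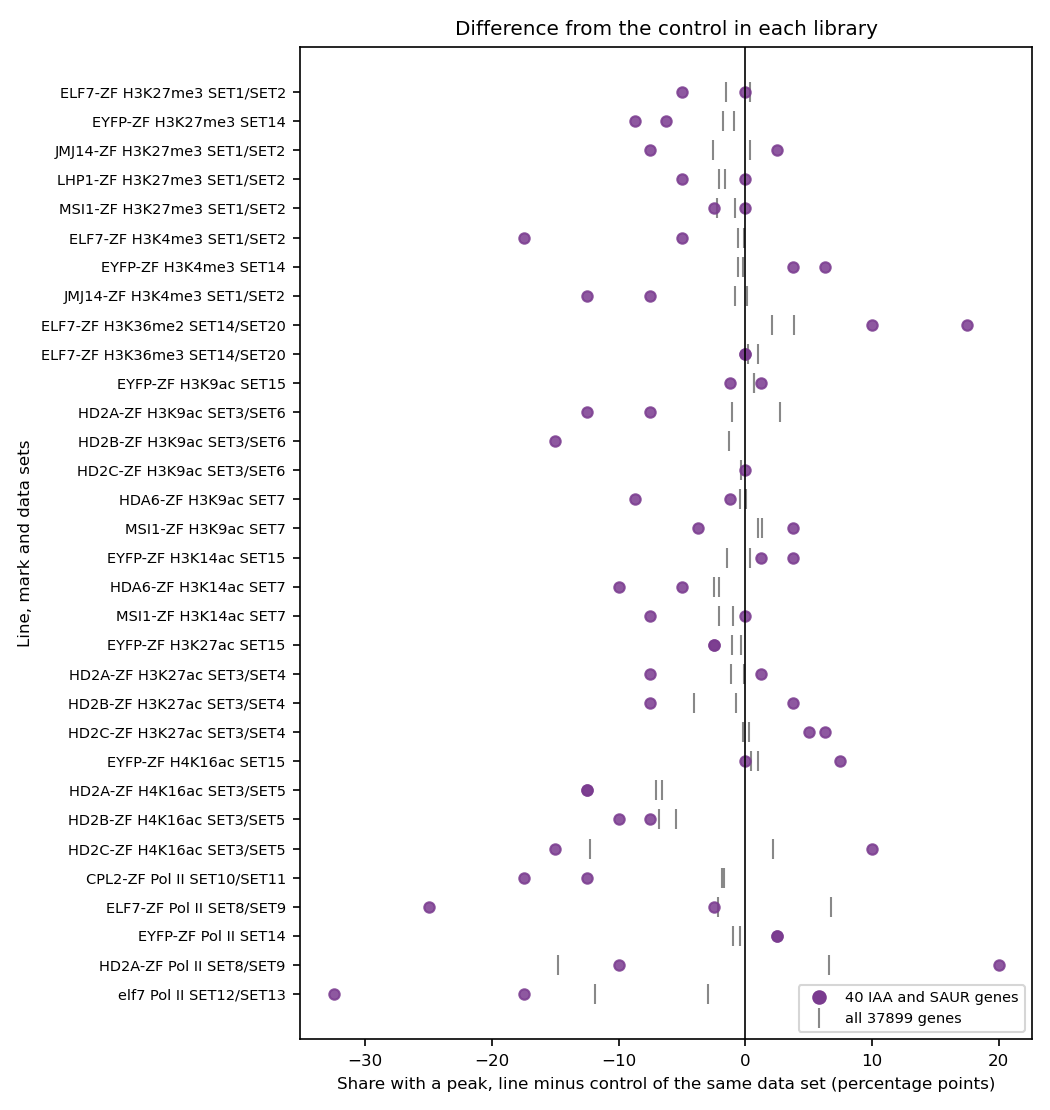
Difference in the share of genes with a peak, line minus control of the same SET, in percentage points, for the 32 contrasts. Points give the 40 members and grey ticks all 37899 genes, with a mark per fusion or mutant library. The widest gap is that of Pol II in elf7 (21 and 13 members) beside Col-0 (28 and 26 members).

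The largest difference of the 32 contrasts was that of Pol II in the elf7 mutant. In elf7, 21 and 13 members had a Pol II peak, beside 28 and 26 in Col-0. The elf7 values lay below both Col-0 values, and the difference was −25.0 percentage points, beside −7.39 for all genes (exact permutation p = 0.33). The SET13 elf7 list held 10611 peaks against 14911 in Col-0, and with equal numbers of peaks the difference was −20. In SET12, where elf7 had 17578 and Col-0 17391 peaks, members were 21 against 28. In CPL2-ZF, 16 and 13 members had a peak beside 23 and 18 in fwa, which is −15 points, beside −1.76 for all genes. In ELF7-ZF the counts were 11 and 15 beside 12 and 25 in fwa, which is −2.5 points within SET8 and −25 within SET9. The mean difference of −13.75 points thus came mostly from SET9, and with equal numbers of peaks it was −5. Over all genes it was +2.29. The ELF7-ZF list of SET8 held 16206 peaks beside 11758 in fwa. In HD2A-ZF the counts were 20 and 21 beside those same fwa values, which is +20 points within SET8 and −10 within SET9. The mean was +5 points, beside −4.08 for all genes. With equal numbers of peaks it was +15, the lists holding 15108 and 12753 peaks beside 11758 and 19505 in fwa. EYFP-ZF had 26 and 26 members beside an fwa mean of 25.

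H3K27me3 over the members stayed close to fwa in the lines with Polycomb-associated and other effectors. LHP1-ZF had 13 and 13 members marked, MSI1-ZF 15 and 12, ELF7-ZF 13 and 13 and JMJ14-ZF 12 and 14, beside 15 and 13 in fwa. The differences ran from −1.25 to −2.5 points and were within the spread of the fwa libraries. Those over all genes ran from −0.61 to −1.86 points. No member gained or lost the mark by the rule given next. Of all genes only 0.137% to 0.52% gained it and 0.296% to 0.924% lost it in these lines. SAUR36 and SAUR9 were the 2 marked SAUR genes. The control EYFP-ZF had 3 and 2 members marked beside 7 and 4 in fwa of SET14 (−7.5 points), in lists of 1373 and 940 peaks beside 2199 and 1149, and the difference was −3.75 with equal numbers of peaks.

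H3K4me3 covered 18 and 20 members in JMJ14-ZF and 21 and 16 in ELF7-ZF, beside 23 and 23 in the fwa libraries that both lines share. Both lines lay below fwa in each library, by 10 and 11.25 percentage points on average, whereas all genes changed by less than 1 point. With equal numbers of peaks the differences were −8.75 and −7.5. Of the 19 members with H3K4me3 in both fwa libraries, 0 were lost in JMJ14-ZF and 1 in ELF7-ZF by the rule given below. In EYFP-ZF, 25 and 26 members were marked, beside an fwa mean of 23.5. H3K36me3 lay over 9 and 10 members in ELF7-ZF and over 9 and 10 in fwa. H3K36me2 lay over 22 and 21 members in ELF7-ZF and over 15 and 17 in fwa (+13.75 points, all genes +2.94). SAUR genes made up most of this, with 8 and 5 marked beside 3 and 2. The SET14 ELF7-ZF list held 29961 peaks against 25108, and with equal numbers of peaks the difference became +3.75.

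The count of members with H4K16ac differed between the HD2 lines, and so did the length of their peak lists. HD2A-ZF had 7 and 9 marked members and HD2B-ZF 8 and 11 (SET3 and SET5). The 3 fwa libraries had 13 (fwa1) and 11 (fwa2) in SET3 and 14 in SET5. HD2C-ZF had 16 and 8. HD2A-ZF and HD2B-ZF lay below each fwa library of the same SET, whereas HD2C-ZF lay above fwa in SET3 and below it in SET5. The 2 HD2C-ZF lists held 14703 and 11472 peaks, and its difference from fwa over all genes was +2.18 points in SET3 and −12.3 in SET5. The HD2A-ZF difference was −11.7 percentage points, beside −4.83 for all genes, at an exact permutation p of 0.1, the smallest that 2 libraries against 3 allow. The HD2A-ZF lists held 10188 and 13977 peaks, beside 13357 and 12389 in fwa of SET3 and 17474 in SET5. With the same number of peaks the HD2A-ZF difference was −2.92. That of HD2B-ZF moved from −7.92 (all genes −4.15) to −0.42, and that of HD2C-ZF from −1.67 to −3.33. The acetylation marks at H3 gave differences from −15 points (HD2B-ZF H3K9ac, 13 members in its 1 library beside a mean of 19) to +5.63 points (HD2C-ZF H3K27ac). HDA6-ZF had H3K14ac over 20 and 18 members, beside a mean of 22.

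A member was called gained in a contrast where every fusion library had a peak and no fwa library of the SET had one, and lost in the opposite case. By this rule, which is no test, there were 17 gained and 29 lost calls over the 32 contrasts, with 21 of the 40 members called at least once (52.5%, beside 21.4% of all genes and 23.4% of protein-coding genes). They were 8 IAA and 13 SAUR genes. Calls of the control fusion EYFP-ZF and of the elf7 mutant are included in all these counts. In 38 of 64 contrast directions no member was called, and there 0.00264% to 1.5% of all genes were.

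In Pol II, CPL2-ZF lost Pol II at SAUR29, SAUR26, SAUR23 and IAA28, while 1.28% of all genes were called lost. These were 22.2% of the 18 members that had Pol II in both fwa libraries, beside 3.88% of all such genes. At SAUR29 the Pol II peak covered 46.0% of the window in each fwa library and was absent from both CPL2-ZF libraries. In the other fwa sets SAUR29 had no Pol II peak in SET8, 20.3% covered in SET9, and 63.7% and 64.5% in SET14. At SAUR26 it covered 55.3% and 37.7%, and at SAUR23 26.5% and 26.6%. SAUR23 belongs to the SAUR19 to SAUR24 group that promotes cell expansion. IAA28, a repressor of lateral root formation, had Pol II over 61.8% and 21.2% of its window in fwa. In the opposite direction SAUR36 gained Pol II in CPL2-ZF, as did 0.575% of all genes.

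ELF7-ZF lost Pol II at SAUR63, IAA8 and IAA7 (0.303% of all genes lost), and gained it at SAUR36 (0.293% gained). SAUR63, which promotes organ elongation, had Pol II over 43.8% and 47.5% of its window in fwa of SET8 and SET9, and over 44.6% and 53.5% in HD2A-ZF. These were 25% of the 12 members with Pol II in both fwa libraries, beside 1.12% of all such genes. HD2A-ZF gained Pol II at SAUR68 and SAUR20 (0.198% gained). The 2 fusions shared these fwa libraries. In elf7, Pol II was lost at IAA32, SAUR27 and IAA28, beside 2.92% of all genes. At SAUR27 it covered 48.5% and 52.5% of the window in Col-0. The members lost were 13.04% of the 23 that had Pol II in both Col-0 libraries, beside 8.01% of all such genes. The control fusion EYFP-ZF gained Pol II at IAA5 and SAUR9 (0.644% gained). IAA5 had no Pol II peak in any of the 6 fwa libraries, and peaks over 48.0% and 42.5% of its window in EYFP-ZF, so that such calls also arose without an effector.

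The deacetylase lines gave calls in both directions. At H4K16ac, HD2A-ZF lost IAA7 and SAUR23 (0.821% of all genes lost), HD2B-ZF lost the same 2 genes (0.747%), and HD2C-ZF lost IAA7 (0.9%). SAUR36 gained H4K16ac in HD2B-ZF (0.1% of all genes gained) and in HD2C-ZF (0.0633%). SAUR23 had H4K16ac over 22.6%, 26.0% and 19.7% of its window in the 3 fwa libraries. These 3 lines shared their fwa libraries. The loss of IAA7 in all 3 lines and of SAUR23 in both did not hold with equal numbers of peaks. In H3K9ac, where HD2B-ZF and HD2C-ZF had 1 library each, HD2B-ZF gained SAUR36 (0.945% of all genes) and lost SAUR63, SAUR27, SAUR15, SAUR24 and IAA7 (1.89%). HD2C-ZF gained SAUR36, SAUR28 and IAA1 (0.905%) and lost SAUR63 and SAUR15 (1.24%). HDA6-ZF lost H3K9ac at SAUR28 (0.573%) and gained H3K14ac at IAA32 (0.325%). MSI1-ZF also gained H3K14ac at IAA32 (0.749%), from the same fwa libraries. IAA32 encodes an Aux/IAA protein without the canonical degron.

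The remaining calls were few. ELF7-ZF lost H3K4me3 at IAA1 (0.164% of all genes lost). The mark covered 26.6% and 28.7% of the IAA1 window in fwa and was absent from both ELF7-ZF libraries. EYFP-ZF gained H3K4me3 at IAA6 (0.135%), lost H3K27me3 at SAUR29 (0.245%), lost H3K14ac at SAUR9 (0.565%) and lost H3K27ac at IAA14 and SAUR9 (0.406%). It gained H4K16ac at SAUR28 and SAUR22 (0.649%) and lost it at IAA28 (0.375%). Of all 46 calls, 14 held under each of 6 other definitions of a peak or window, and 17 did not hold with equal numbers of peaks, among them the ELF7-ZF losses at SAUR63 and IAA8 and the elf7 loss at IAA28. The H4K16ac gains of SAUR36, the IAA32 gains and the EYFP-ZF losses at SAUR9 did not hold with peaks of at least 2-fold.

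**Figure D4:**
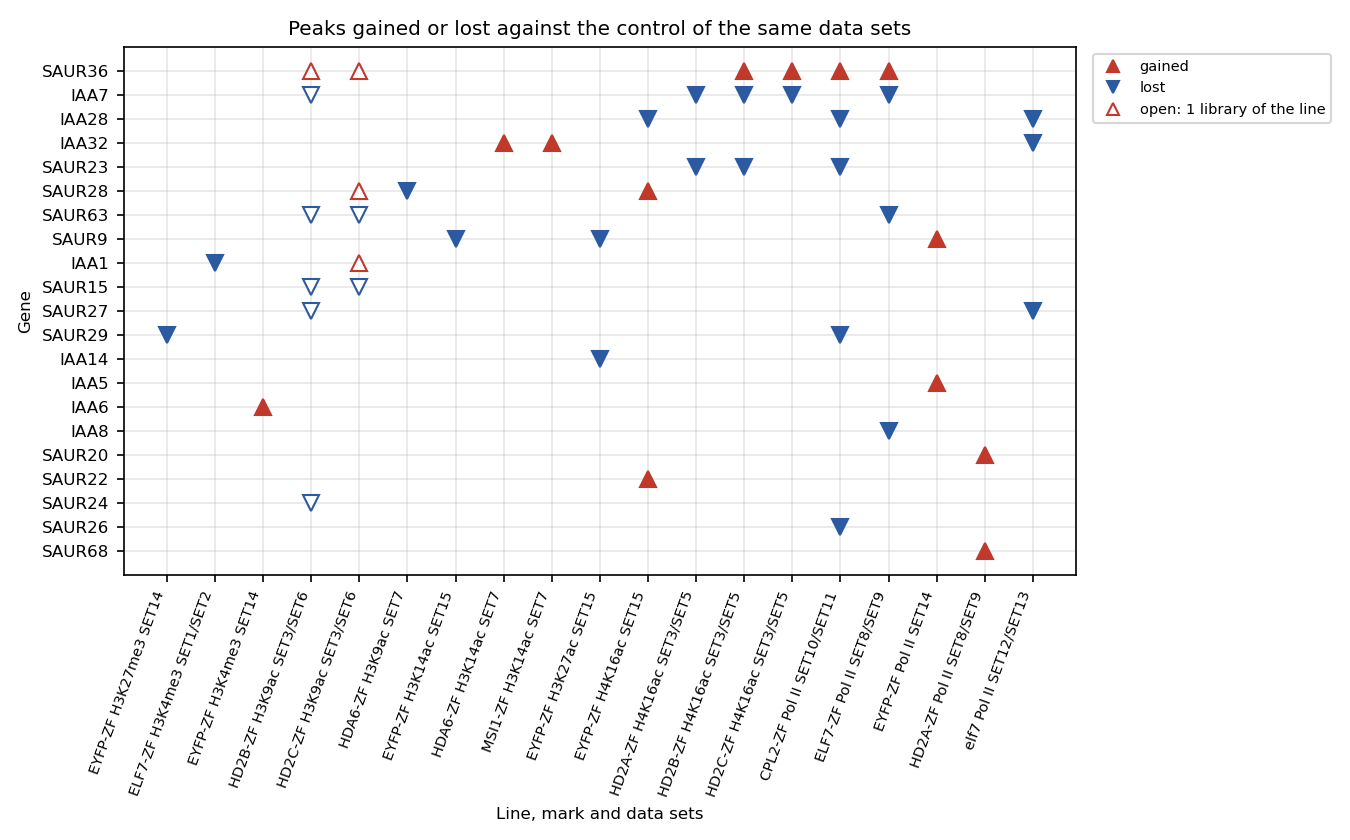
Gained and lost calls of each called member by contrast, in the 26 contrast directions with a call. SAUR36 has gained calls alone, in Pol II, H3K9ac and H4K16ac, and IAA7 lost calls alone.

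SAUR36, also named SAG201, is expressed in senescing leaves and lies on chromosome 2 from 18641563 to 18642739. It was called 6 times, each time gained. Pol II covered 70.2% and 63.7% of the window in CPL2-ZF (3.66- and 4.13-fold) and 10.1% and 10.7% in ELF7-ZF, and there was no Pol II peak in the fwa libraries of either comparison. H4K16ac covered 14.2% and 21.0% in HD2B-ZF, 19.7% and 18.8% in HD2C-ZF, and 0 and 24.2% in HD2A-ZF, beside 0 in 3 fwa libraries. H3K9ac covered 29.6% in HD2B-ZF, 12.1% in HD2C-ZF, and 9.60% and 0 in HD2A-ZF, and was absent from fwa of SET3 and SET6. The fwa lists were not alike at this gene. Those of SET7 and SET15 did have H3K9ac at SAUR36, over 24.5% and 32.1%, and 25.3% and 18.7%, of the window. The H3K9ac peaks of these fwa lists covered 15.3 to 16.8 Mb in all, beside 9.76 to 10.5 Mb in SET3 and SET6. H3K27me3 covered 59.2% and 56.8% in fwa of SET1 and SET2. The Pol II call in CPL2-ZF held under each of 6 other definitions of a peak or window, whereas that in ELF7-ZF did not hold with equal numbers of peaks.

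IAA7, also named AXR2, encodes a repressor of auxin-dependent growth and lies on chromosome 3 from 8194606 to 8197161. H4K16ac at IAA7 was a narrow peak of 188, 173 and 170 bp in the 3 fwa libraries, or 6.15%, 5.66% and 5.56% of the window, and was absent from all 6 HD2 libraries. Pol II covered 557 and 606 bp in fwa of SET8 and SET9 and was absent from ELF7-ZF, while HD2A-ZF had 1574 and 850 bp. H3K27me3 covered 73.5% and 59.98% of the window in fwa of SET1 and SET2. The FLAG list labelled TRB1-ZF placed a region of 8.86-fold over IAA7, with its summit 125 bp after the gene start.

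**Figure D5:**
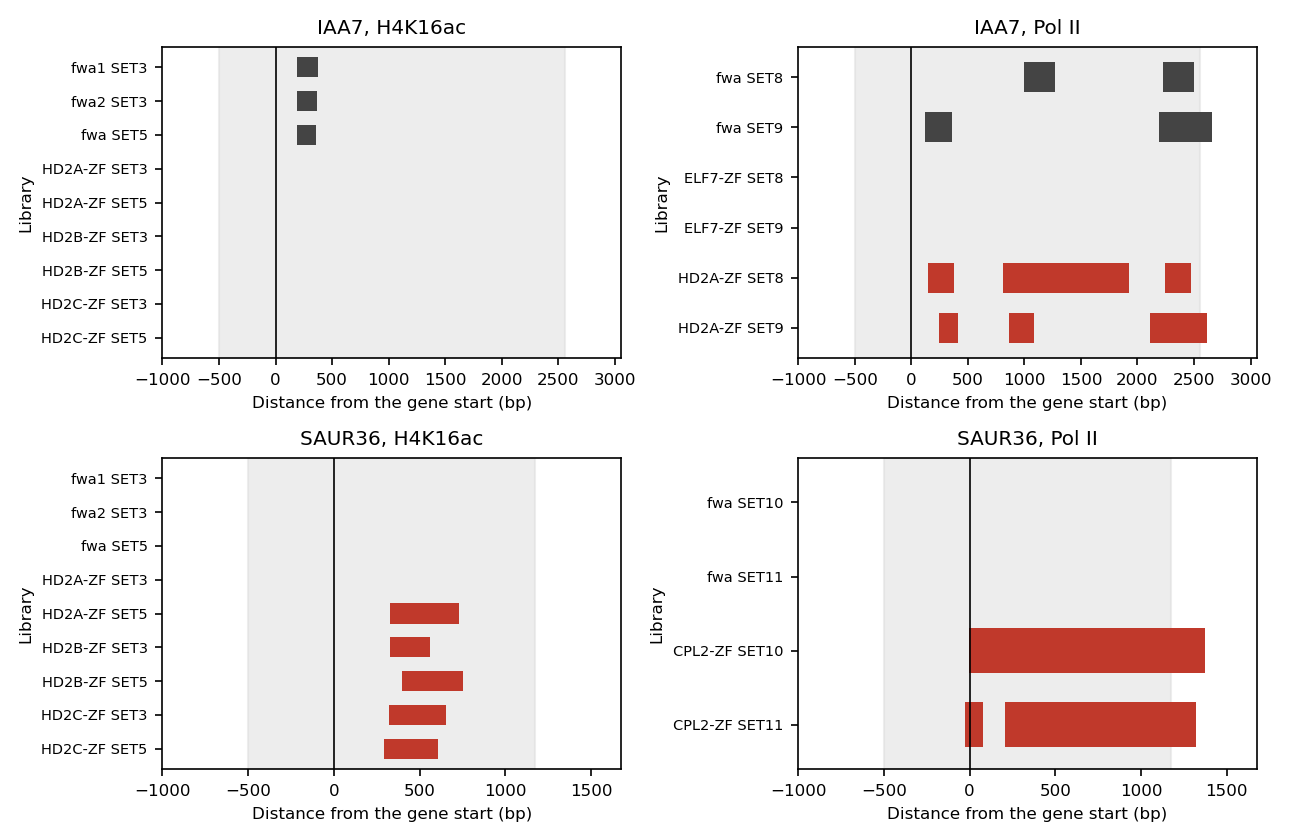
Peaks of H4K16ac and Pol II around IAA7 and SAUR36, by distance from the gene start in bp, with a row per library, dark bars for fwa and red bars for fusions, and the window in grey. At SAUR36 the Pol II bars of SET10 and SET11 are present in CPL2-ZF alone, and at IAA7 the narrow H4K16ac bars of 170 to 188 bp are present in fwa alone.

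Binding of the ZF was read from 1 FLAG list without a replicate. Its label names a TRB1-ZF fusion, whereas the study's methods describe FLAG-ZF plants, so binding that belongs to TRB1 cannot be told apart here. The list had a region of at least 4-fold at its first listed summit over IAA5 (7.02-fold), IAA7, IAA11 (5.01-fold), IAA14 (6.44-fold), IAA16 (6.15-fold) and SAUR26 (6.08-fold). This was 20.8% of the IAA and 6.25% of the SAUR genes, beside 16.4% of all genes. The summits at IAA5, IAA11 and IAA16 lay outside the window, which only the edge of the region reached. From the gene start they lay at 1450 bp (IAA5, a gene of 986 bp), −522 bp (IAA11) and −809 bp (IAA16). IAA2 and IAA20 were named after their values were seen. They had a later summit of 8.37- and 8.86-fold, that of IAA20 past its gene end, in a region whose first summit was lower. Of the 6 members with such a region 4 were called in a contrast, beside 6 of the 13 with weaker regions alone and 11 of the 21 with none. Calls of EYFP-ZF and elf7 are included, and all genes were not split this way. No link between ZF binding and calls can therefore be read from these counts. SAUR36 had no ZF region. ELF7-FLAG covered 12 and 12 IAA genes and 11 and 10 SAUR genes, or 68.8% and 62.5% of the SAUR genes, beside 39.6% and 28.7% of all genes. HD2A-FLAG had a region over IAA2 and IAA16 and over 0 SAUR genes. The flower buds of the FLAG lists and the leaves of the other lists are different tissues.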

How the data were processed

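ChIP-seq reads had been aligned to TAIR10 with Bowtie2 2.1.0, handled with SAMtools 1.9 and peaks called per library with MACS2 2.1.1, per the submitters' processing notes and methods. The deposited lists give a fold enrichment at the summit and a −log10 q for each peak, which the authors' peak caller computed within a library, so folds were ranked only within a list. The −log10 q values deposited by the authors served only to keep the strongest peaks of each list where equal numbers of peaks were compared. In 2 FLAG lists there were positions only. Read numbers are not given in the sources used here.

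Peaks were intersected with gene windows of the RefSeq TAIR10.1 annotation on 5 chromosomes (python 3.11.15, numpy 2.4.6, scipy 1.17.1, matplotlib 3.10.9). No peak ended past a reference chromosome. Each contrast used an exact two-sided permutation test over libraries, and IAA minus SAUR an exact sign-flip test over fwa libraries, with Benjamini-Hochberg adjustment and a threshold of 0.05. Scripts were tested on simulated data.

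The members and lists were chosen with earlier results of these data known. Genes were named if called gained or lost, if over a ZF region of at least 4-fold, if first of their family for a mark by median peak percentile in fwa, if bearing H3K27me3 with H3K4me3, or if without any peak in fwa. Genes listed for H3K27me3, H3K36me3 and Pol II in fwa were named by those counts. The labels tie replicate numbers to data sets (such as replicate 1 in SET1 and replicate 2 in SET2), so the replicate block pairs a fusion with fwa of its SET; in SET7, SET14 and SET15 both replicates lie within 1 set. Alternatives were other windows, a 2-fold minimum, equal peak numbers, wider gene lists, the block and leaving out each library.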

Additional observations from a re-analysis of the deposited data

How the results depend on the processing

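With these numbers of libraries no contrast between a fusion and its control could pass the test, in the main run or in an alternative. Of 427 alternatives for the member shares of contrasts above or below 0, 395 kept the direction, 20 came to 0 and 12 turned it. In 4 contrasts the share was equal and had no direction. By symbol or synonym, elf7 Pol II was −16.1 percentage points (from −25), CPL2-ZF Pol II −6.25 (from −15), ELF7-ZF Pol II −7.14 (from −13.75), ELF7-ZF H3K4me3 −2.23 (from −11.25), JMJ14-ZF H3K4me3 −5.36 (from −10), HD2B-ZF H3K9ac −6.25 (from −15), HD2A-ZF H3K9ac −0.60 (from −8.75) and ELF7-ZF H3K36me2 +7.14 (from +13.75). With equal numbers of peaks, MSI1-ZF H3K27me3 became +1.25 percentage points and HD2B-ZF H3K27ac +3.75. EYFP-ZF H3K14ac became −1.25 with peaks of at least 2-fold, and EYFP-ZF H4K16ac −1.25 with 1000 bp upstream. Leaving out 1 library in turn gave −5 to +2.5 for MSI1-ZF H3K27me3, −10.6 to +4.38 for HD2A-ZF H3K27ac, −10.6 to +6.88 for HD2B-ZF H3K27ac, −11.7 to +8.33 for HD2C-ZF H4K16ac, −30 to +2.5 for ELF7-ZF Pol II and −11.25 to +21.25 for HD2A-ZF Pol II. In these contrasts the libraries come from more than 1 SET, so leaving one out sets some lists beside fwa of another SET. With the replicate block, elf7 Pol II was −25 and CPL2-ZF Pol II −15 (exact permutation p = 0.5, the smallest 2 pairs allow), HD2A-ZF H4K16ac −12.5 and HD2B-ZF H4K16ac −8.75, and the block changed no call.

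The IAA minus SAUR difference depended on which SAUR genes were counted. Synonyms raise the lists to 32 IAA and 80 SAUR genes, and product names to 78 SAUR genes. By synonym it was +19.2 percentage points for H3K4me3, +10.9 for H3K9ac (raw exact permutation p = 0.015625), +3.75 for H3K14ac and +13.3 for H3K27ac, and by product name +13.6, +7.78 and +7.10 for H3K4me3, H3K9ac and H3K27ac. With windows that overlap no other gene it was +3.38 for H3K4me3 and −11.9 for H3K9ac (raw exact permutation p = 0.03125). With 1000 bp upstream H3K9ac was −17.0 (raw exact permutation p = 0.03125). With peaks of at least 2-fold it was +1.19 for H3K9ac, +9.90 for H3K14ac and +5.56 for H3K27ac. H3K27ac was +0.69 in the gene body alone and +1.81 without AT5G01830, and Pol II was −10.1 within 500 bp of the start and −1.39 without AT5G01830. Leaving out 1 library gave −10.4 to −4.51 for H3K9ac, −7.92 to +2.08 for H3K27ac and −1.67 to +5.42 for Pol II. The cause was not tested. Calls numbered 17 gained and 29 lost, and 17 and 16 with equal numbers of peaks, 11 and 30 with 1000 bp upstream, and 29 and 62 with the wider lists by synonym. The lists without AT5G01830 and by product name, and H3K27me3 without SET14, were added after seeing the data.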

Other observations

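Other genes with auxin pathway symbols were counted beside the members. TIR1 and AFB receptor genes had H3K4me3 in every fwa library in 5 of 5 cases and H3K36me3 in 5 of 5, and the ARF genes in 12 of 20 cases for both marks. Of all genes, 45.2% had H3K4me3 and 43.4% had H3K36me3 in every fwa library. GH3 genes, which encode enzymes that conjugate auxin to amino acids, had H3K4me3 in 0 of 5 cases, and YUC genes, which encode auxin biosynthesis enzymes, in 1 of 11. Of the 19 genes with the symbol TPL or TPR and digits, only 4 are annotated as TOPLESS family (TPL, TPR1, TPR2 and TPR3), and these 4 had H3K4me3 and H3K36me3 throughout. The symbols gave 67 genes, or 52 without the other 15 TPR symbols. Among the 52 there were 7 gained and 9 lost calls in 8 genes (15.4%). Among the 67 there were 8 and 12 calls in 12 genes (17.9%). Of the IAA and SAUR genes 52.5% were called, beside 21.4% of all genes and 23.4% of protein-coding genes. GH3.3 gained Pol II in CPL2-ZF and in ELF7-ZF (0.575% and 0.293% of all genes gained), the 2 contrasts in which SAUR36 did.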
